A study of Mus musculus with 17 samples.

Results

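Tcf1 peaks that lay in chromatin carrying H3K27me3 in mature mouse thymocytes are described here. A Tcf1 peak was taken when it shared at least 1 bp with an H3K27me3 island, an interval called as enriched, in at least 1 of 3 thymocyte groups. The rule found 820 of 7807 Tcf1 peaks, or 10.5% (exact Clopper-Pearson interval at 95%, 9.83 to 11.2). The peaks fell in 764 stretches of merged islands, and 720 of these stretches held 1 peak, 41 held 2 and 3 held 5, 6 and 7.

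The members were chosen by measured values, the H3K27me3 islands of all 3 groups and the Tcf1 peak calls. The groups were WT CD8, CD8 thymocytes of wild-type mice, WT CD4, their CD4 counterparts, and DKO CD8, CD8 thymocytes whose Tcf1 and Lef1 genes Cre under CD4 control had deleted, which was not checked here. For the CD8 thymocytes the sort took cells high in TCRβ that had neither CD69 nor CD24. Each group had 1 chromatin immunoprecipitation (ChIP-seq) library for each of H3K27me3, H3K4me3, H3K27ac and H3K9ac, and 1 input. Tcf1 binding was mapped in wild-type CD8 T cells of the spleen, with splenic CD8 cells lacking Tcf1 as the control, so the Tcf1 peaks and the histone marks come from different organs, and the DKO CD8 cells lack the factor whose peaks are counted. A phenotype label of the WT CD4 samples names CD8 cells, but title and source name say CD4 and were followed. With 1 library for each group and mark, differences between the groups lack a replicate check and no p-value is given. Intervals cover counting error only, and peaks of 1 list are not replicates. Positions are in mm9, and which genes lie there, and whether marker genes fit the labelled cell types, was not analysed here.

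Tcf1 is a DNA-binding factor of the HMG-box family that acts with its relative Lef1 in T cell development and in the choice of the CD8 fate. H3K27me3 is deposited by Polycomb repressive complex 2 and marks silenced genes, often over broad domains that include the genes of other lineages. H3K4me3 marks promoters, and H3K27ac and H3K9ac mark active promoters and enhancers. H3K27ac and H3K27me3 are modifications of the same lysine and cannot sit on the same histone tail, so a peak with islands of both, as called in bulk cells, can combine different histone tails, alleles or cells. In bulk cells, fewer cells with a mark and less mark per cell cannot be told apart.

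The WT CD8 libraries stood apart from the others before any peak was considered. Their H3K27ac islands covered 29.4% of the length of their H3K27me3 islands, against 6.1% for DKO CD8 and 4.47% for WT CD4, and their H3K4me3 islands covered 10.9% of it, against 2.66% and 3.62%. Of the WT CD8 H3K27me3 islands, 55.0% touched an H3K27ac or H3K4me3 island of the same cells. The overlap lay mostly where no other group had the mark: in the 62.2 Mb of merged H3K27me3 regions with an island in WT CD8 alone, WT CD8 H3K27ac covered 46.8% of the length, and the H3K27ac islands of the other 2 groups covered 1.09% (DKO CD8) and 1.42% (WT CD4). DKO CD8 and WT CD4 shared 67.6 Mb of H3K27me3, while WT CD8 shared 40.4 Mb with DKO CD8 and 45.8 Mb with WT CD4. Few Tcf1 peaks lay in the regions called in WT CD8 alone, 0.917 for each Mb. Results that rest on WT CD8 are therefore given also without it, and the part of these libraries in the results was not tested.

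The 820 peaks fell into 7 classes by the groups with an H3K27me3 island at the peak, as the plot of peaks by class shows. The most frequent class, 277 peaks or 33.8% (30.5 to 37.1), had the island in DKO CD8 alone. The island was shared by DKO CD8 and WT CD4 but not WT CD8 at 158 peaks (19.3%), and by all 3 groups at 145 (17.7%). WT CD4 alone had 124 peaks (15.1%), WT CD8 alone 74 (9.02%), both CD8 groups 22 (2.68%) and both wild types 20 (2.44%). The first place of DKO CD8 alone depended on which islands were taken. With only islands of more reads than their list's median, this class had 148 peaks, and DKO CD8 with WT CD4 had 161. With at least 50% of the peak in the island, the counts were 242 and 135. With scores of at least 100 they were 101 and 39. These counts describe what the rule selects and were not tested.

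**Figure D1:**
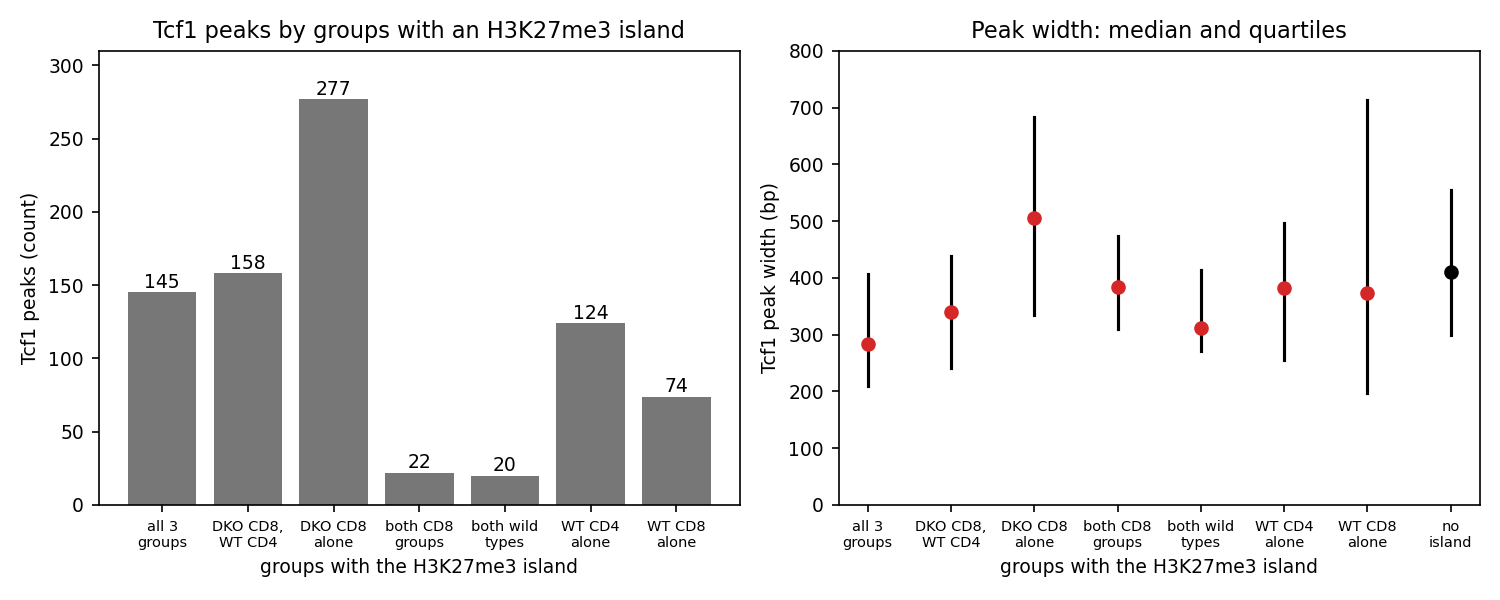
The left panel gives the number of Tcf1 peaks (y axis) for each combination of groups with an H3K27me3 island at the peak (x axis). The right panel gives the median (points) and the quartiles (lines) of Tcf1 peak width in bp for the same classes and for the Tcf1 peaks with no such island. The 277 peaks of DKO CD8 alone are the tallest bar and have the widest median peak, 506 bp.

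By library, 602 of all 7807 peaks lay in a DKO CD8 island (7.71% of the peaks tested), 447 in a WT CD4 island (5.73%) and 261 in a WT CD8 island (3.34%). The order did not follow the length called, which was 96.1 Mb in DKO CD8, 142 Mb in WT CD4 and 121 Mb in WT CD8, so that a Mb of island held 6.27, 3.15 and 2.16 peaks. Merged regions with an island in DKO CD8 alone, 14.5 Mb in all, held 12.1 peaks for each Mb, and the 83.4 Mb of regions called in all 3 groups held 4.34. Leaving WT CD8 out, 746 peaks remained by the rule: 299 with the island in DKO CD8 and not in WT CD4 (40.1%), 303 in both (40.6%) and 144 in WT CD4 and not in DKO CD8 (19.3%). When WT CD8 H3K27me3 islands that touched H3K27ac or H3K4me3 of the same cells were left out instead, an alternative chosen after seeing the data, the class of DKO CD8 alone had 290 peaks, DKO CD8 with WT CD4 253, all 3 groups 50 and WT CD8 alone 19. The all-3 class thus rests on which WT CD8 islands are accepted.

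A class at the peak is not the same as a class of the whole domain. Of the 277 peaks with the island in DKO CD8 alone, 175 lay in a merged region that no other group had called, 58 in a region with islands of all 3 groups elsewhere, 38 in one shared with WT CD4 and 6 in one shared with WT CD8. The nearest WT CD8 island lay at a median of 22113 bp from these 277 peaks, with 52 of them nearer than 2 kb and 179 farther than 10 kb. The nearest WT CD4 island lay at a median of 10382 bp, with 94 peaks nearer than 2 kb. The 158 peaks of DKO CD8 and WT CD4 were closer to a WT CD8 island, at a median of 2924 bp, and 72 of them were within 2 kb.

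The rule has a threshold, and Tcf1 peaks stood on both sides of it by a few bp. The smallest overlaps were 3 bp at chr4:131399198-131399604, where a DKO CD8 island of 17.2 kb ended, 4 bp at chr9:31078748-31079404 and 9 bp at chr11:94490592-94491274. The nearest peaks left out were 5 bp from an island at chr3:65761275-65761595, 6 bp at chr5:136631061-136631594 and 9 bp at chr5:34863383-34863791. Of the 6987 other Tcf1 peaks, 744 (10.6%) lay within 2 kb of an island of any group, and their median distance was 19039 bp.

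The islands under the peaks differed in shape between the classes, as the plot of island widths shows. The 268 DKO CD8 islands under the peaks of DKO CD8 alone had a median width of 2600 bp and a median of 50 reads, or 24.1 reads per kb. The 137 DKO CD8 islands under peaks of the all-3 class had a median width of 8800 bp and 364 reads, or 40.7 per kb. The list as a whole had a median width of 2600 bp and 23.2 reads per kb, close to the first class and below the second. Islands without a Tcf1 peak also differed by region. Their medians were 4600 bp and 28.8 per kb in regions of all 3 groups. In regions of DKO CD8 alone they were 1800 bp and 20 per kb. In DKO CD8, islands under peaks of both of these classes were thus wider and denser than islands without a peak in regions of the same name. A wider island can meet a peak by its length alone, and the part of this was not tested. In WT CD8, density was higher under peaks of the all-3 class, at 18.4 against 17.0 per kb. It was lower under peaks of WT CD8 alone (18.1 against 21.25), both CD8 groups (16.8 against 21.7) and both wild types (15.4 against 16.1). These island values come from the lists that chose the members and are a description.

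**Figure D2:**
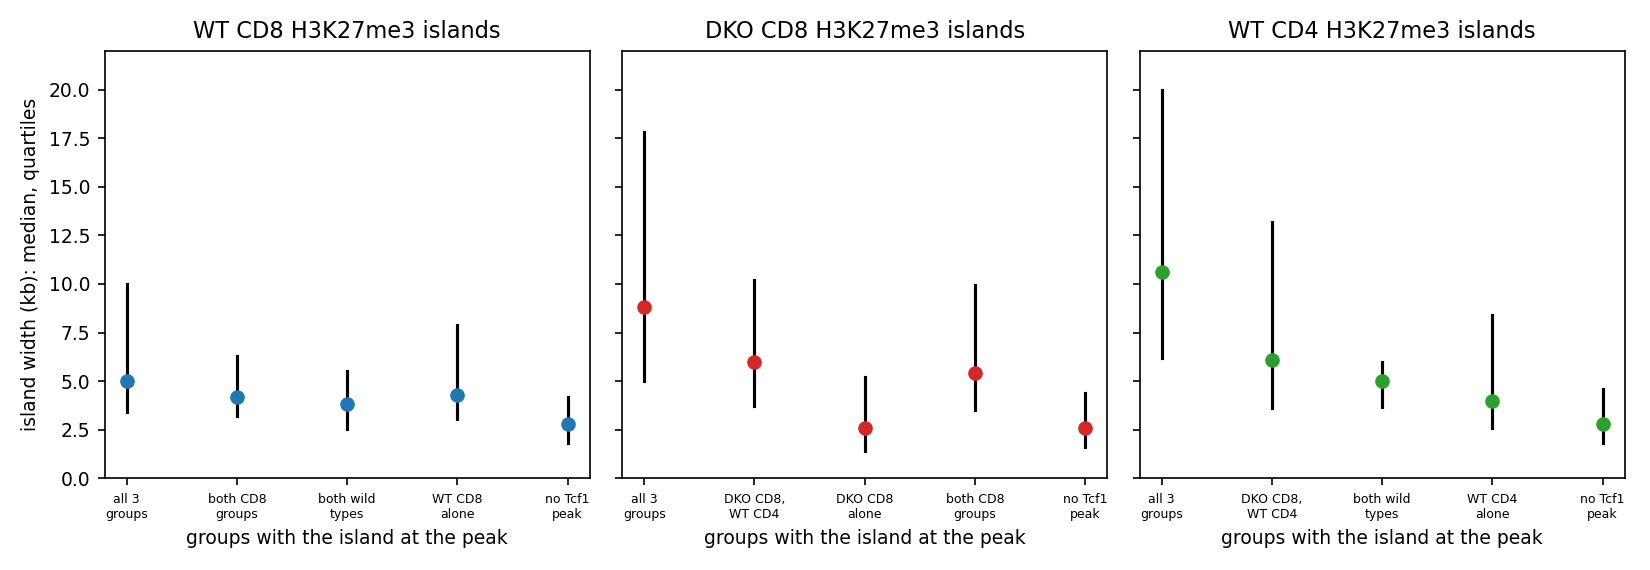
Median (points) and quartiles (lines) of the width of H3K27me3 islands in kb, in 1 panel for each library. The x axis gives the class of the Tcf1 peaks over the islands and, last, islands with no Tcf1 peak. In DKO CD8 the median runs from 8.8 kb for peaks with the island in all 3 groups to 2.6 kb for peaks with the island in DKO CD8 alone, the value of islands without a peak.

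Read density, which is not scaled for depth, was lower in WT CD8 at the same places, as over all regions shared by both CD8 groups, where DKO CD8 had 2.24 times the reads at the median. Over the 145 peaks with the island in all 3 groups, the median was 18.4 reads per kb in WT CD8 (10.5 to 191 from lowest to highest), 40.7 in DKO CD8 (16.6 to 762) and 36.7 in WT CD4 (17.6 to 380). The ranges overlapped, and the list medians over all islands were 19.3, 23.2 and 21.7, so the members were denser than their lists in DKO CD8 and WT CD4 and not in WT CD8. Across these peaks, the density in DKO CD8 and WT CD4 ranked alike with Spearman's rho of 0.73 over 138 pairs of islands, and in WT CD8 and DKO CD8 with 0.54 over 139 pairs. These values are across islands that share a library and its depth, and are a description.

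Peaks also sat differently within their islands. Of the 277 peaks of DKO CD8 alone, 109 (39.4%) crossed the edge of the island, the median peak was 90 bp inside the nearest edge, and 46 (16.6%) were more than 1 kb inside. Of the 145 peaks of the all-3 class, 11 (7.59%) crossed the edge of the DKO CD8 island, the median was 2310 bp inside, and 105 (72.4%) were more than 1 kb inside. The 158 peaks of DKO CD8 and WT CD4 were between these, with 28 crossing the DKO CD8 edge and a median of 1318 bp.

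The plot of island coverage around the peaks shows the same shapes. At the centre of the peaks of DKO CD8 alone, 80.9% of positions lay in a DKO CD8 H3K27me3 island, 36.5% at 2 kb to the left and 34.7% at 2 kb to the right. For the all-3 class, DKO CD8 H3K27me3 covered 95.2% at the centre and still 76.6% and 72.4% at 2 kb. H3K27ac of the same cells was narrow in both: at the peaks of DKO CD8 alone it fell from 81.2% at the centre to 24.9% on each side at 2 kb, and at the all-3 peaks from 40.7% to 12.4% and 10.3%. At other Tcf1 peaks DKO CD8 H3K27ac covered 74.0% at the centre and 22.2% at 2 kb.

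**Figure D3:**
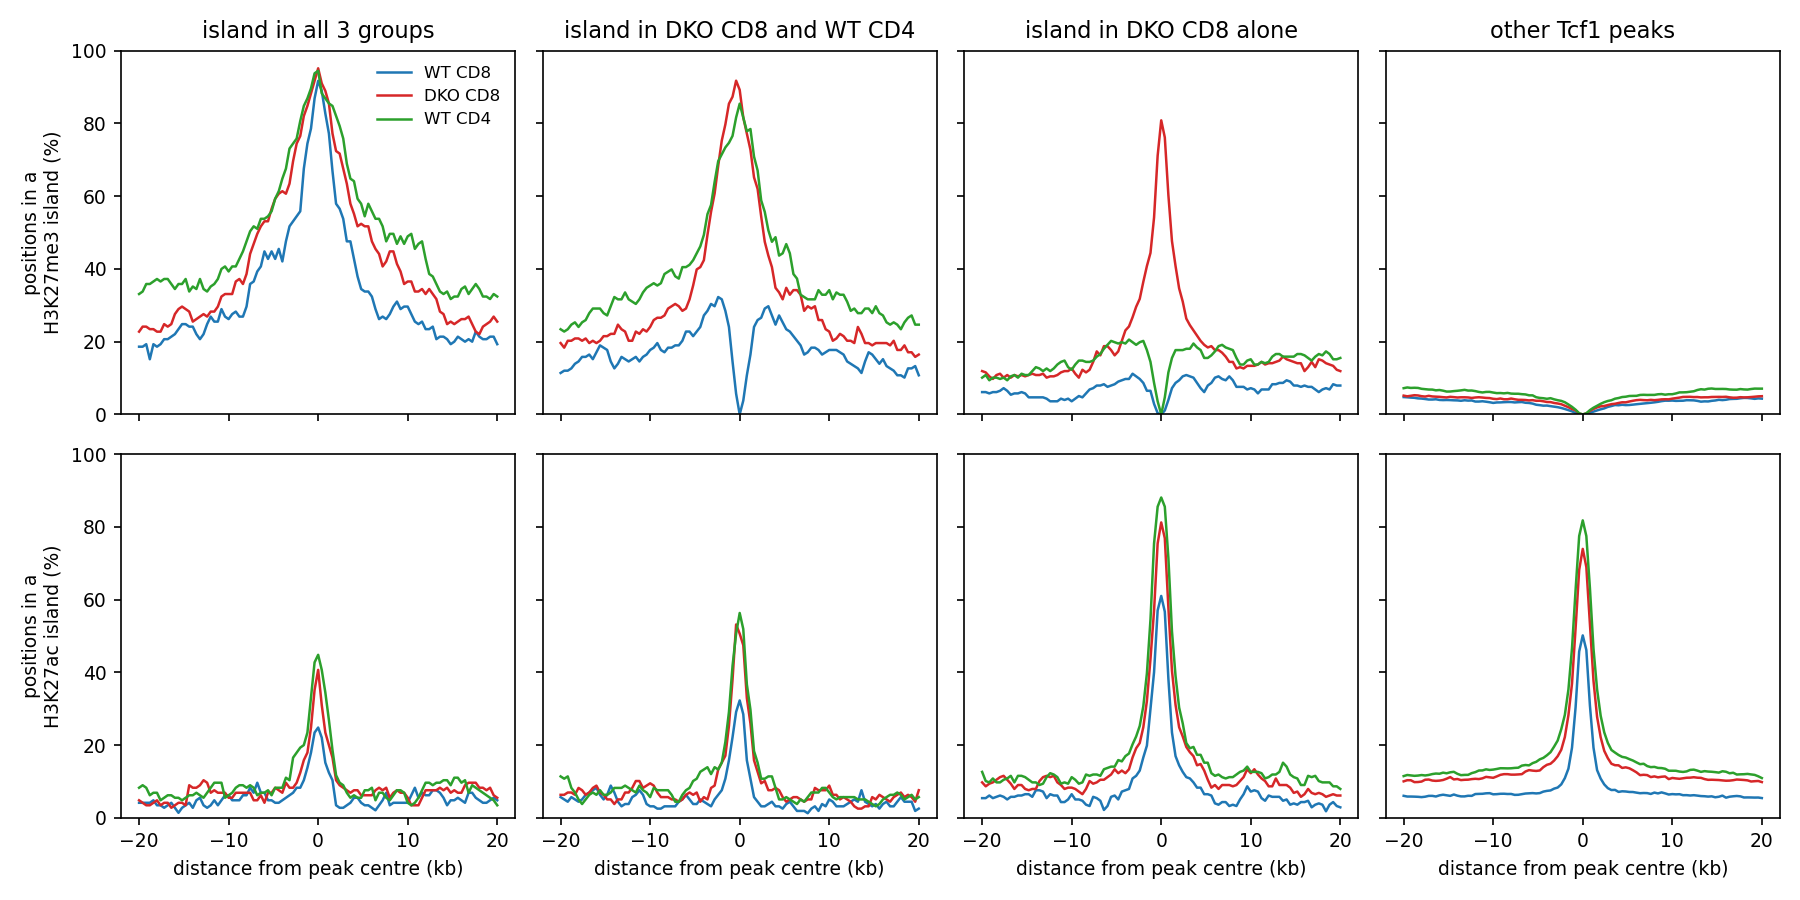
Percentage of positions inside an H3K27me3 island (upper row) or an H3K27ac island (lower row) against the distance from the Tcf1 peak centre in kb. Lines are the WT CD8, DKO CD8 and WT CD4 libraries, and columns are 3 classes of peaks and the peaks with no H3K27me3 island, where the value of 0 at the centre in the upper row follows from the rule. H3K27me3 is broad around peaks of all 3 groups and narrow around peaks of DKO CD8 alone, whose H3K27ac reaches 81.2% in DKO CD8.

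The active marks were not used by the rule, and they separated the classes. In WT CD8, H3K27ac was not separate from the rule, since it covered 29.4% of the H3K27me3 length. In WT CD8, H3K27ac islands lay at 365 of the 820 peaks (44.5%), while DKO CD8 had them at 499 (60.9%) and WT CD4 at 543 (66.2%). All Tcf1 peaks had 55.8%, 74.8% and 81.5%, and the peaks with no H3K27me3 island 57.2%, 76.4% and 83.2%, so the members as a whole had less H3K27ac in each group. The peaks of DKO CD8 alone had more than the other Tcf1 peaks in each group: 65.7% in WT CD8 (59.8 to 71.3), 83.8% in DKO CD8 (78.9 to 87.9) and 89.5% in WT CD4 (85.3 to 92.9). The peaks of the all-3 class had less: 30.3% (23.0 to 38.5), 44.1% (35.9 to 52.6) and 46.9% (38.6 to 55.4). The intervals of these classes did not overlap in any group.

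H3K4me3, the promoter mark, separated the same classes. In WT CD8, DKO CD8 and WT CD4 it lay at 34.5%, 35.5% and 41.6% of all Tcf1 peaks and at 31.5%, 32.1% and 41.7% of the members. At the peaks of DKO CD8 alone it lay at 54.2%, 60.6% and 65.3%. At the all-3 peaks it lay at 17.9%, 11% and 31.7%. H3K9ac, at 23.0%, 28.5% and 49.6% of all Tcf1 peaks, followed H3K4me3: 43.3%, 51.6% and 70.8% for DKO CD8 alone, and 4.14%, 4.14% and 26.2% for the all-3 peaks.

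**Figure D4:**
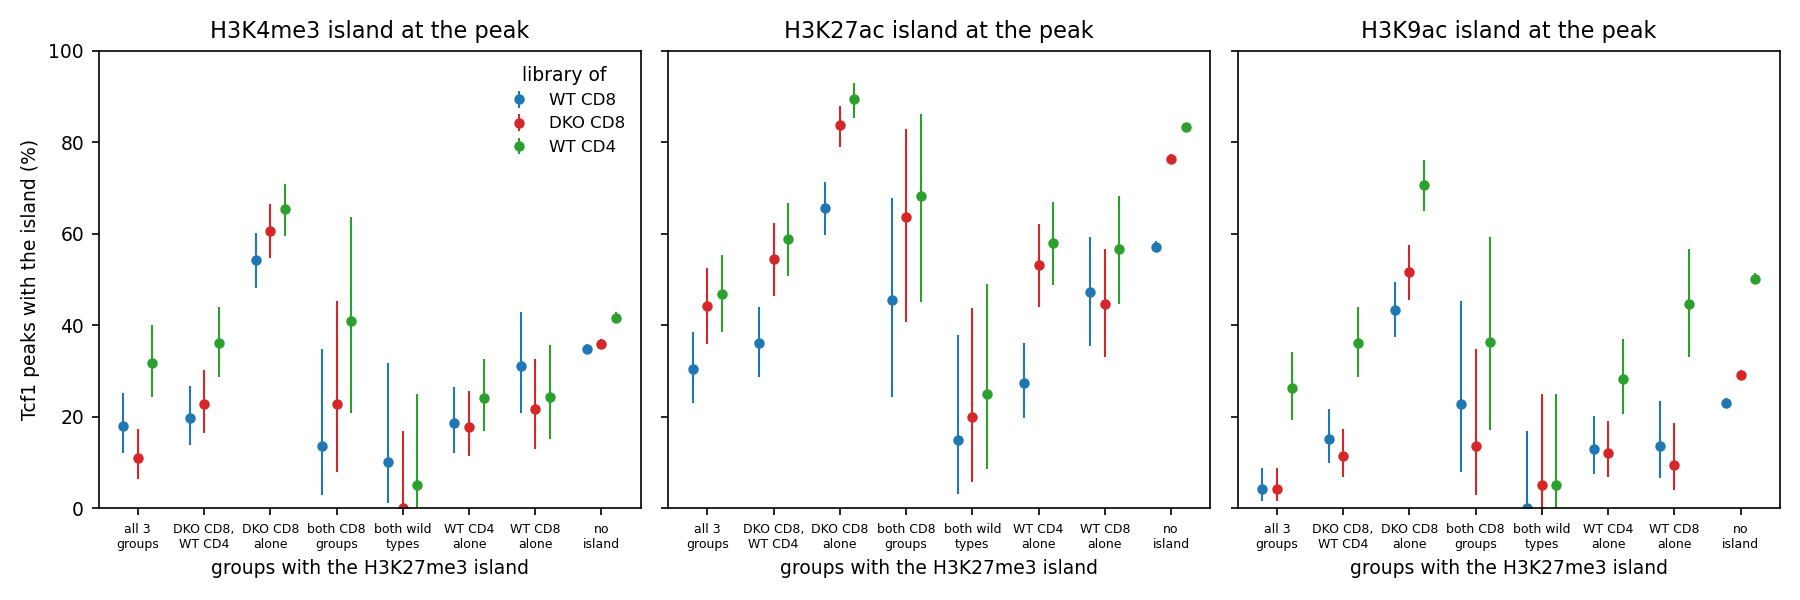
Percentage of Tcf1 peaks with an H3K4me3, H3K27ac or H3K9ac island (1 panel for each mark), by the class of H3K27me3 (x axis) and by library (colour). Points are shares and lines are exact 95% Clopper-Pearson intervals. The peaks of DKO CD8 alone are the highest class for each mark in each library, at 54.2% to 65.3% for H3K4me3.

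The combination of marks at a peak divided the members further. All 3 active marks were called in all 3 groups at 94 of the 277 peaks of DKO CD8 alone (33.9%) and at 1 of the 145 all-3 peaks, against 13.3% of the other Tcf1 peaks. No active mark was called in any group at 180 members (22%), and at 13.1% of the other peaks. By class, no active mark was called at 19 of the peaks of DKO CD8 alone (6.86%), 28.3% of the all-3 peaks, 31.0% of those of DKO CD8 and WT CD4, and 11 of the 20 of both wild types. H3K4me3 and H3K27me3 in the same library, a pair known as bivalent when both lie on the same chromatin, were called at 54 of 261 peaks in WT CD8, 225 of 602 in DKO CD8 and 134 of 447 in WT CD4. Most of these also had an acetyl mark there: without H3K27ac or H3K9ac, 17, 5 and 10 peaks had the pair.

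The contrast between the classes was also found without the WT CD8 libraries. Of the 299 peaks with the island in DKO CD8 and not in WT CD4, 82.3% had H3K27ac in DKO CD8 (77.5 to 86.4) and 57.9% had H3K4me3 there (52.0 to 63.5). Of the 303 peaks with the island in both, 49.5% (43.7 to 55.3) and 17.2% (13.1 to 21.9) did. At the 144 peaks with the island in WT CD4 and not in DKO CD8, the WT CD4 library had H3K27ac at 53.5% (45.0 to 61.8) and H3K4me3 at 21.5% (15.1 to 29.1), so the island of 1 group alone did not go with active marks in WT CD4 as it did in DKO CD8.

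Within the peaks of DKO CD8 alone, the width of the island moved with the active marks of the same library. The 167 peaks with both H3K27ac and H3K4me3 in DKO CD8 had H3K27me3 islands of 2.0 kb and 38 reads at the median, and 79 of them (47.3%) crossed the island edge. The 65 with H3K27ac and no H3K4me3 had islands of 4.6 kb and 94 reads, and the 44 with neither had islands of 5.2 kb and 113 reads. Densities were close, at 24.2, 25.6 and 21.7 reads per kb.

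Most of the DKO CD8 H3K27me3 islands under the peaks of DKO CD8 alone touched acetylated chromatin. At least 50% of the length lay in H3K27ac for 155 of them (57.8%). Of the 268 islands, 86.6% (81.9 to 90.4) touched an H3K27ac island of DKO CD8, with a median of 59.4% of their length covered, and 67.9% (62.0 to 73.5) touched H3K4me3. The 7115 DKO CD8 islands in regions of DKO CD8 alone that held no Tcf1 peak touched H3K27ac in 10.3% (9.61 to 11) and H3K4me3 in 9.59% (8.91 to 10.3). Under peaks of the all-3 class, 63.5% of the 137 islands touched H3K27ac with a median of 8.84% covered. Of the 9383 islands without a peak in regions of all 3 groups, 18.5% did. The compared sets are not matched, since peaks were classed at the peak and islands without a peak by their merged region. Of the 277 peaks of DKO CD8 alone, 175 lay in a region of DKO CD8 alone. Tcf1 peaks as a whole lay in acetylated chromatin (74.8% in DKO CD8), and the part of this in these differences was not tested.

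Read from the side of the active islands, a Tcf1 peak did not go with more H3K27me3. Of 5177 DKO CD8 H3K27ac islands with a Tcf1 peak, 10.1% (9.29 to 11) also had an H3K27me3 island of DKO CD8, against 14.4% (13.9 to 14.8) of the 24459 without a peak. In WT CD4 the shares were 8.03% (7.33 to 8.77) of 5569 and 16.8% (16.3 to 17.3) of 18907. In WT CD8 they were 3.09% (2.57 to 3.68) of 3946 and 35.5% (35.1 to 35.9) of 53039. Islands with a peak were wider, so the shares were also taken by width, and they stayed lower with a peak in each of 4 width classes in each group, as the plot of H3K27ac islands shows. In the widest class in DKO CD8, over 4 kb, the intervals overlapped, at 12.9% (10.8 to 15.3) with a peak and 14.5% (12.4 to 16.7) without.

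**Figure D5:**
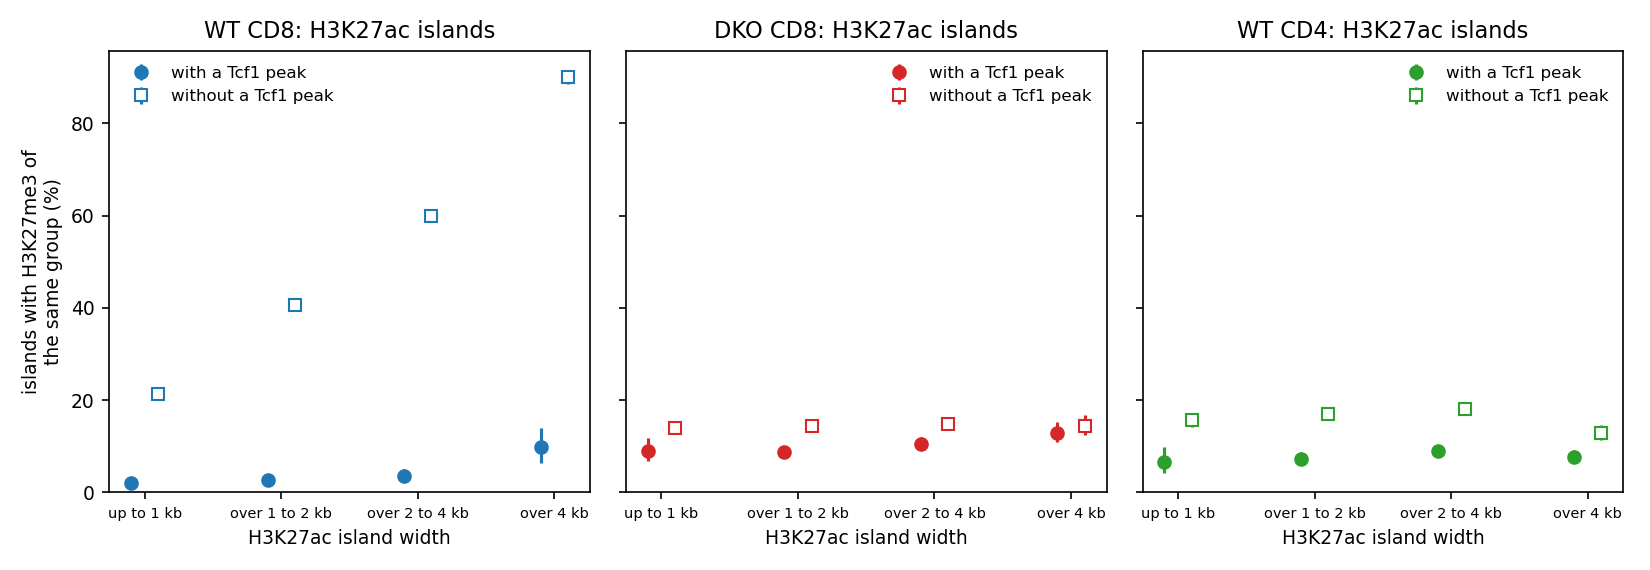
Percentage of H3K27ac islands that also have an H3K27me3 island of the same library (y axis), by H3K27ac island width (x axis), for islands with a Tcf1 peak (filled) and without (open). Lines are exact 95% intervals, and panels are WT CD8, DKO CD8 and WT CD4. Open points lie above filled ones in each width class, and in WT CD8 they reach 90.0% over 4 kb.

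H3K4me3 islands gave the same order over all widths and a smaller gap in DKO CD8. There, 9.6% (8.5 to 10.8) of 2635 islands with a Tcf1 peak and 11.7% (11.3 to 12.1) of 20776 without a peak had H3K27me3. In H3K4me3 islands over 2 to 4 kb, DKO CD8 had 21.2% (15.0 to 28.4) with a peak and 20.6% (17.0 to 24.5) without. In WT CD4 the shares over all widths were 5.26% of 3080 and 21.1% of 25369, and in WT CD8 1.99% of 2565 and 26.3% of 39448.

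H3K27ac that was present in WT CD8 was mostly present in DKO CD8 too. Of the 182 peaks of DKO CD8 alone with H3K27ac in WT CD8, 177 (97.3%, 93.7 to 99.1) kept an island in DKO CD8, against 3832 of 3994 other Tcf1 peaks (95.9%). Of the 44 all-3 peaks with H3K27ac in WT CD8, 31 (70.5%, 54.8 to 83.2) had it in DKO CD8. H3K4me3 was kept at 140 of 150 peaks of DKO CD8 alone (93.3%), at 9 of 26 all-3 peaks (34.6%) and at 1997 of 2433 other peaks (82.1%). From WT CD4, which leaves out the WT CD8 libraries, H3K27ac was found in DKO CD8 at 238 of 263 peaks with the H3K27me3 island in DKO CD8 and not WT CD4 (90.5%, 86.3 to 93.8), at 130 of 161 with the island in both (80.7%, 73.8 to 86.5) and at 88.8% of peaks with neither.

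An exchange of 1 mark for the other was called at few members, though most members lacked the marks needed to show one. At 11 members (1.34%, and 0.141% of all Tcf1 peaks) H3K27ac in WT CD8 stood opposite H3K27me3 in DKO CD8, with no island of the other mark in either. Among peaks with H3K27ac in WT CD8, these were 5 of 182 of DKO CD8 alone and 6 of 57 of DKO CD8 and WT CD4. At the other Tcf1 peaks, H3K27ac of WT CD8 was not called in DKO CD8 at 162 of 3994. At 11 more members (0.141% of all Tcf1 peaks) H3K27me3 in WT CD8 stood opposite H3K27ac in DKO CD8. Between wild types, H3K27me3 in WT CD8 stood opposite H3K27ac in WT CD4 at 22 members (0.282% of all peaks), and the reverse at 7 (0.0897%). WT CD4 H3K27ac stood opposite DKO CD8 H3K27me3 at 25 (0.32%), and the reverse at 10 (0.128%).

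The highest-scoring peak that went from H3K27ac in WT CD8 to H3K27me3 in DKO CD8 was chr2:156947430-156948231, with a Tcf1 score of 184. Its WT CD8 H3K27ac island held 29 reads over 1.4 kb, its DKO CD8 H3K27me3 island 30 reads over 1.4 kb, and its WT CD4 H3K27ac island 210 reads over 6.0 kb. Both CD8 islands were short and shallow, unlike the WT CD4 one. A larger H3K27me3 domain lay at chr11:53918589-53918904, with 406 DKO CD8 reads over 10 kb and 40.6 reads per kb, and H3K27ac of 33 reads in WT CD8 and 80 in WT CD4. At chr5:75462760-75463242 the DKO CD8 H3K27me3 island held 1244 reads over 25.2 kb, and H3K27ac held 28 reads in WT CD8 and 87 in WT CD4. In the last 2 cases the merged region had WT CD8 H3K27me3 islands elsewhere, with 97 and 433 reads.

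In the opposite direction the leading peaks lay on chromosome 8. At chr8:20020231-20020765, score 202, WT CD8 had an H3K27me3 island of 980 reads over 22.4 kb, and H3K27ac islands held 610 reads over 12 kb in DKO CD8 and 712 over 12.2 kb in WT CD4. H3K4me3 islands of 11.4 to 11.8 kb were called there in all 3 groups, with 613, 562 and 667 reads in WT CD8, DKO CD8 and WT CD4. At chr8:19784245-19785212, score 173, the WT CD8 H3K27me3 island held 601 reads over 15.0 kb and H3K27ac held 315 reads in DKO CD8 and 563 in WT CD4.

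Where the same merged region had H3K27me3 in both CD8 groups, the reads could be compared, on the log2 scale and centred on the median of all such regions. Over 304 regions with a member peak, the DKO CD8 over WT CD8 ratio had a median of 0.37. At least 2-fold higher were 46 (15.1%) and at least 2-fold lower 24 (7.89%), against 7.68% and 20.7% of all 9092 regions. Ratios at members were thus shifted upward relative to all regions, but these regions include ones chosen through the DKO CD8 island, so this is a description. Scaled to total island reads instead, the median of all regions was 0.906 and that of the members 1.28. At least 2-fold higher were then 197 of the 304 regions with a member peak and 4190 of all 9092 regions. At least 2-fold lower were 3 and 568, so the counts depend on the scaling. With WT CD4 in place of WT CD8, 445 regions had a median of 0.19, with 37 higher (8.31%) and 25 lower (5.62%), against 3.79% and 8.61% of 12747 regions. On total island reads, 55 of those 445 regions were higher and 18 lower, and of all 12747 regions 733 and 803.

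H3K27ac reads were not used by the rule, but in WT CD8 they were not separate from it, since H3K27ac covered 29.4% of the H3K27me3 length there and the densities of both marks at members ranked together with Spearman's rho of 0.34 over 78 pairs of islands. The H3K27ac ratios over WT CD8 are therefore a description too. Over 328 regions with a member peak, the DKO CD8 over WT CD8 ratio had a median of 0.18, with 26 at least 2-fold higher (7.93%) and 30 at least 2-fold lower (9.15%), against 8.08% and 15.2% of all 11068 regions. The 3668 regions of other Tcf1 peaks had a median of 0.17, so the members as a whole did not stand apart from them. The classes pulled in opposite directions: the 179 regions of DKO CD8 alone had a median of 0.33, with 17 higher and 5 lower, and the 35 regions of the all-3 class had -0.64, with 2 higher and 13 lower (37.1%). On total island reads, which put the median of all regions at 1.51, these classes had medians of 1.84 and 0.87. The sign of the all-3 class thus turns with the scaling. That scaling adds the same constant to each region of a comparison, so the order of the classes could not change. The counts turn as well: on total island reads 166 of the 179 regions of DKO CD8 alone were higher and 1 lower. Of the 35 regions of the all-3 class, 15 were higher and 1 lower, against 7991 and 197 of all 11068 regions. With WT CD4 in place of WT CD8, the medians were 0.12 over 218 regions and -0.29 over 52, with 2 and 13 of the former and 5 and 4 of the latter beyond 2-fold upward and downward, against 4.3% and 7.25% of all 16289 regions.

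The largest H3K27me3 ratios came from regions with a small island in WT CD8. At chr4:48057482-48058161 the merged region held 37 WT CD8 and 654 DKO CD8 reads, a centred log2 ratio of 2.98. H3K27ac at that peak held 263, 539 and 926 reads in WT CD8, DKO CD8 and WT CD4, and H3K4me3 73, 57 and 90, so both active marks were called in each group beside the DKO CD8 domain of 10.2 kb. At chrX:11668040-11668299 the region held 41 and 752 reads, a ratio of 3.03, and the WT CD4 island at the peak held 52. The lowest ratio was -3.78 at chr6:38070556-38071080, score 288, with 257 WT CD8 and 42 DKO CD8 reads in the region and 756 reads in the WT CD4 island of 23.8 kb. No active mark was called at that peak in any group.

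The Tcf1 score, the authors' own value for each peak, was used only to rank peaks of this list. Members had a median score of 73.3 and other peaks 76.6. Scores of at least 100 were held by 246 of the 820 members and by 30.7% of the other peaks, so high and low scores were both present in H3K27me3 chromatin. Between classes, the median was 80.3 for DKO CD8 alone, 69.9 for DKO CD8 and WT CD4, and 65.7 for the all-3 peaks. Peak width gave a wider spread: 506 bp, 339 bp and 283 bp, against 410 bp for other peaks. Of the 1952 widest of all Tcf1 peaks, 113 (5.79%) belonged to DKO CD8 alone and 14 (0.717%) to the all-3 class, and of the 1952 narrowest 42 (2.15%) and 77 (3.94%).

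Peaks with the highest scores were present in most classes. The highest of the members, 457, was at chr9:119847510-119848222, with H3K27me3 of 96 reads over 9.0 kb in WT CD8 and 55 over 2.0 kb in WT CD4, none in DKO CD8, and H3K27ac called in WT CD4 alone, with 68 reads. In DKO CD8 alone the highest, 396, was at chr16:91826068-91826515, inside a DKO CD8 domain of 29.8 kb and 951 reads, with H3K27ac called in DKO CD8 alone at 28 reads. Its merged region held 304 WT CD8 reads away from the peak. On chromosome 14, peaks about 10 kb apart led 2 classes: chr14:61675272-61675842, score 396, had H3K27me3 islands of 261 DKO CD8 reads and 244 WT CD4 reads, and chr14:61665005-61665614, score 339, had islands of 59 WT CD8, 101 DKO CD8 and 139 WT CD4 reads. Neither had an H3K4me3 island in any group.

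Some members lay in stretches that were called as enriched for several marks over the same length. In chr6:47601601-47637000, 35.4 kb with 6 Tcf1 peaks, WT CD8 had H3K27me3 of 3029 reads, 85.6 per kb, and DKO CD8 and WT CD4 had no H3K27me3 island. At the highest-scoring of these peaks, chr6:47613366-47614984, H3K27ac islands of 35.6, 36.4 and 36.6 kb were called in WT CD8, DKO CD8 and WT CD4, with WT CD8 H3K4me3 over 36.4 kb and WT CD4 H3K9ac over 36.6 kb. The neighbouring chr6:47687001-47728200, with 7 peaks and 3333 WT CD8 reads, had H3K27ac at all 7 peaks in each group. These 13 peaks are part of the 74 of WT CD8 alone, and 61 remain without them. Another crowded region, chr17:35522801-35584000, held 5 peaks and H3K27me3 of 25.1, 61.5 and 54.9 reads per kb in WT CD8, DKO CD8 and WT CD4.

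The densest H3K27me3 at a member was found in short islands. At chr9:123370856-123371371 the DKO CD8 island of 0.6 kb held 457 reads, 762 per kb, with 87.5 per kb in WT CD8 and 314 in WT CD4. A domain on chromosome 8 was long as well as dense: the island over chr8:126079567-126079874 and chr8:126147505-126147797 spanned 95, 124.8 and 130.2 kb in WT CD8, DKO CD8 and WT CD4 with 13797, 30376 and 22505 reads. Both of its peaks had low scores, 53.1 and 52.9.

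Members were farther from other Tcf1 peaks than the rest of the list, with the nearest peak at a median of 39056 bp against 25480 bp. Another peak lay within 10 kb of 176 members (21.5%) and of 32.9% of the other peaks. By chromosome, the share of Tcf1 peaks that were members ran from 5.99% on chromosome 14 to 18.6% on X, where 11 of 59 peaks were members, leaving out Y, where neither of 2 peaks was a member.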

How the data were processed

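The deposited island lists give, for each island, a read count, a whole number that was not normalized, per the values in the lists. Each peak of the deposited Tcf1 list carries a score set by the authors, from 50 to 478. Per the submitters' processing notes, the build was mm9 and the tools were MACS 1.4.2, SICER 1.1, Bowtie2 2.2.5 and FastQC, with no role stated. Library totals were not given in the sources used, and depth is known only as reads in islands, 248234 to 4025243 in each of 12 lists. A second sequencing run of unnamed samples is mentioned in the labels.

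From these lists, peaks were joined to islands by at least 1 bp, islands sharing at least 1 bp were merged, and region read ratios were centred on their median. Ratios see only reads inside islands, so a small island in a wide region can overstate one. Intervals are exact Clopper-Pearson at 95%. Peaks named in the text were, for each class, the 3 with the highest score, the 5 with the densest H3K27me3, the 5 with the highest score in each exchange of marks, the 3 highest and lowest ratios, the 3 nearest the threshold on each side, and regions with at least 5 peaks; the text gives some of these. The members, classes and lists were chosen with earlier results of these data known, and the split of active islands by Tcf1 peak and the account without WT CD8 were added after the values were seen. Steps that need an mm9 annotation or sequence were not run. Overlaps were checked with bedtools 2.31.1, and steps were tested on simulated data. In 11068 simulated H3K27ac regions (DKO CD8 over WT CD8), 200 of them changed 3-fold, the ratio step found 98.0% of raised and 89.0% of lowered regions beyond 2-fold and 1.27% of unchanged ones. The simulated reads varied by counting error only, so 1.27% is not an error rate for the measured ratios. Of the measured regions, 8.08% were at least 2-fold higher and 15.2% at least 2-fold lower. Scripts ran in Python 3.11.15 with SciPy 1.17.1, pandas 2.3.3, numpy 2.4.6 and, for plots, matplotlib 3.10.9.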

Additional observations from a re-analysis of the deposited data

How the results depend on the processing

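No paired analysis was possible because each group has 1 library for each mark. With islands of more reads than their list's median, DKO CD8 alone held 148 peaks and was no longer the most frequent class, as DKO CD8 and WT CD4 held 161, and WT CD8 H3K27ac and H3K4me3 lay at 36.1% and 22.9% of the members. With scores of at least 100, 246 members remained, 33 in all 3 groups, 101 in DKO CD8 alone and 39 in DKO CD8 and WT CD4, with H3K4me3 in WT CD8 at 27.6%; fewer peaks are counted by construction, and the median score was not recomputed there. Without peaks within 2 kb of another group's island, DKO CD8 alone held 173. Without the DKO CD8 library the rule found 543 peaks. Without WT CD8 H3K27me3 islands touching H3K27ac or H3K4me3 of WT CD8, all 3 groups held 50 peaks and DKO CD8 and WT CD4 253. The median H3K27me3 ratio, DKO CD8 over WT CD8, was 1.28 on total island reads. That of H3K27ac was 1.69 on total island reads, 0.36 where the higher library had 50 reads or more and 0.30 for the island under the peak per kb. The causes of these shifts, other than the scale and the fewer peaks counted, were not tested. Over all members, the median H3K27me3 and H3K27ac ratios, DKO CD8 over WT CD8, stayed positive in each alternative. On total island reads they could not have done otherwise, since that scaling adds a positive constant. By class, the median H3K27ac ratio, DKO CD8 over WT CD8, turned on total island reads from -0.64 to 0.87 for all 3 groups, from -0.049 to 1.46 for DKO CD8 and WT CD4, and from -0.13 to 1.38 for WT CD8 alone. Depth is known only as reads in islands, and a shallow island may be missed in any list. Without replicate libraries, differences between groups have no error beyond counting.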
